A study of Mus musculus with 18 samples.

Results

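Kidney cortex of MRL/lpr mice, whatever they were given, was compared with kidney cortex of healthy MRL/MpJ mice. All 18 libraries of the series entered the comparison, 15 from MRL/lpr and 3 from MRL/MpJ, chosen by the genotype and title in the labels. Each library was made from bulk kidney cortex RNA of 1 mouse and gave expression values for the same 15035 genes. The healthy mice carried the genotype Mrl/Mpj wild type and received vehicle. The Mrl/lpr mice formed 5 arms of 3 mice each, given vehicle, MMF (mycophenolate mofetil, which blocks purine synthesis in lymphocytes), FK506 (tacrolimus, a calcineurin inhibitor), prednisone (a glucocorticoid) or the multi-target treatment, whose components the labels do not list. The labels give no age, sex or dose. Healthy titles follow another format than MRL/lpr titles, so any separate handling of the 2 strains cannot be told apart from strain. The lpr genotype and any disease that it brought cannot be told apart either, since every MRL/lpr mouse carried the genotype and no healthy mouse did. The values used here include no disease score for any mouse.

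Fas is a death receptor that removes activated and self-reactive lymphocytes by triggering caspases. The lpr allele is an insertion of a retroviral element in an intron of Fas, and mice homozygous for it accumulate lymphocytes, make autoantibodies and develop immune complex glomerulonephritis with lymphocytes and macrophages around vessels and tubules. MRL/MpJ is the strain of origin with an intact Fas gene, and its own autoimmunity is later and milder.

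Interferons act through STAT and IRF factors on short promoter motifs. The promoters below are shown because their genes were among those that separated the strains. The first 4 are shown also because they carry such motifs. The last is marked for CCAAT, which is not among those motifs. Sequences are from RefSeq, run from 250 bases before to 50 bases after the annotated start, and are printed 5′ to 3′ on the gene's strand. Capitals mark matches, on either strand, to the interferon-stimulated response element (GAAA, then any pair of bases, then GAAA) or the gamma-activated site TTCNNNGAA in the first 4 promoters, and to CCAAT in the last. The marked runs do not overlap.
B2m promoter, GRCm38.p6 chr2:122147437-122147736, plus strand: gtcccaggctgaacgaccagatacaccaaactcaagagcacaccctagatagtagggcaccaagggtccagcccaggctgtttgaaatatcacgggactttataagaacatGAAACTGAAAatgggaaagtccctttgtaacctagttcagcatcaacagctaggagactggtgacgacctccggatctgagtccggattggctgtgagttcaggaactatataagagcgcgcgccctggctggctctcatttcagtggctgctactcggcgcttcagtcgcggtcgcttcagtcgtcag
Gbp2 promoter, GRCm38.p6 chr3:142620413-142620712, plus strand: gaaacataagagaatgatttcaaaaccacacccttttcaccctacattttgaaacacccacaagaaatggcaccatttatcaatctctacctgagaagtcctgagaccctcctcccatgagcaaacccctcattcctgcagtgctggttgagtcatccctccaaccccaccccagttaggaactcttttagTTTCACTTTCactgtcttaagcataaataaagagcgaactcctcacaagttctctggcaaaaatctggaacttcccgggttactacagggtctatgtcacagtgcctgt
Irgm2 promoter, GRCm38.p6 chr11:58214727-58215026, plus strand: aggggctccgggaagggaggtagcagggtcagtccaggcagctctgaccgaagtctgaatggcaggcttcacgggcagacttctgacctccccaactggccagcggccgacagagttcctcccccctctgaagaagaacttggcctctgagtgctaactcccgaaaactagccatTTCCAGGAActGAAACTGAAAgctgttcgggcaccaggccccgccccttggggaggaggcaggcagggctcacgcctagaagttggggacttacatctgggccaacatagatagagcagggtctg
Tgtp1 promoter, GRCm38.p6 chr11:48992197-48992496, minus strand: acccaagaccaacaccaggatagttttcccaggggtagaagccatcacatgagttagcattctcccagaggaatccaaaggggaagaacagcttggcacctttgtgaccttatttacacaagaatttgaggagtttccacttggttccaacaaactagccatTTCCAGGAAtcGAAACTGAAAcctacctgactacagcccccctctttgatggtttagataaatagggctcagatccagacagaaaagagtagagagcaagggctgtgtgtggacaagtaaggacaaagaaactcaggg
H2-Aa promoter, GRCm38.p6 chr17:34287774-34288073, minus strand: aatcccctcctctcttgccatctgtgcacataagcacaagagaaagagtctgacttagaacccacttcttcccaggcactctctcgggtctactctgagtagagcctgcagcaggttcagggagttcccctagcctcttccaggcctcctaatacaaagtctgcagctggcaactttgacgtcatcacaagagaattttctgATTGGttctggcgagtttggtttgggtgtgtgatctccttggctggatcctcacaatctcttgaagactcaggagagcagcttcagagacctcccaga
B2m (the light chain of MHC class I), Gbp2 (a guanylate-binding protein) and the immunity-related GTPases Irgm2 and Tgtp1 each held a response element, read on the opposite strand in Gbp2. In Irgm2 and Tgtp1 a gamma-activated site lay immediately before it, with a pair of bases between them. H2-Aa (an MHC class II alpha chain) held a CCAAT box on the opposite strand. B2m was chosen after its values were seen.

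A window was available for 11664 tested genes, and 3.75% of them held the response element. The share was 12.5% among the 513 genes at least 2-fold higher in MRL/lpr and called, 4.70% among the 149 at least 2-fold lower, and 10 of 13 among interferon-inducible GTPases and gamma-interferon targets. The gamma-activated site was present in 8.55% of all windows, 17% of the 2-fold higher genes and 7 of the same 13. CCAAT was found in 42.6% of all windows and in 7 of 7 MHC class II genes, none of which held the response element. A match describes letters in the window and shows no binding.

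The deposited log2 values corresponded to 28939844 to 41066953 reads per library, with 628 to 1054 reads for the median gene. For 11168 genes the values stood for whole reads in at least 17 libraries; how the others, Fas, Cd74, Iigp1, Prlr and Cp among them, were summarised is unknown. The proximal tubule phosphate transporter Slc34a1 was present in every library (15.88 to 17.98), and Xist stood at 12.62 to 13.99 in all 18. Fat and adrenal transcripts stood out in 1 library each: Adipoq was 11.30 in vehicle mouse 17 and Cyp11a1 was 11.37 in FK506 mouse 12. On the first principal component (41.1% of the variance) the healthy mice lay at -53.4, -48.9 and -43.9 and the nearest MRL/lpr library, MMF mouse 27, at -29.7. The median gene had an SD of 0.08 among healthy mice and 0.25 among MRL/lpr mice, whereas the fit used 1 spread for all groups (median 0.22).

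MRL/lpr cortex differed from healthy cortex in many of the genes measured, and more of them were higher than lower. With the mean of the 5 arm means set against the healthy mean, limma with Benjamini-Hochberg adjustment called 3938 of 15035 genes (26.2%), 2749 higher (18.3%) and 1189 lower (7.91%). All 15 MRL/lpr mice lay above all 3 healthy mice for 1994 genes (13.3%) and below them for 1001 (6.66%). Differences of at least 2-fold were called for 698 higher genes (4.64%) and 197 lower genes (1.31%). The median difference over all genes was 0.09 on the log2 scale, against which every list median below is to be read. Each list count is to be read against the all-gene shares of 18.3% called higher and 7.91% called lower. Under quantile normalization that median was -0.03, and 45% of the 3416 called genes were higher in place of 69.8%. The count was smaller with any 2 of the healthy mice: 1680, 1780 and 1843 genes were called without healthy mouse 1, 2 and 3. Of these, 1256, 1323 and 1421 were higher and 424, 457 and 422 lower. List counts without a healthy mouse are to be read against these totals.

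The largest rises included acute-phase, myeloid and interferon-inducible genes. Saa3 (serum amyloid A3, an acute-phase protein) had 1, 2 and 1 reads in the 3 healthy mice and 13 to 314 in the MRL/lpr mice, a ratio of 92.6 (95% exact counting interval 36.1 to 340). Fpr2 (a formyl peptide receptor of phagocytes) had 2, 2 and 1 reads against 21 to 313, a ratio of 80.9 (34.6 to 250). Fpr1, of the same family, gave a ratio of 52.5 (20.4 to 193). These intervals were computed on reads summed over the mice of each strain and treat reads as independent counts. They leave out the spread between mice, and reads are not independent molecules. The lowest value in each healthy library stood for 1 read, and a gene without reads would not show. Healthy values of 1 or 2 reads thus lie at or next to that floor, so the size of these ratios is uncertain. Large rises are otherwise described with their groups, though not all of them are reported. A selection of 12 genes that were higher in every MRL/lpr mouse is plotted mouse by mouse.

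**Figure D1:**
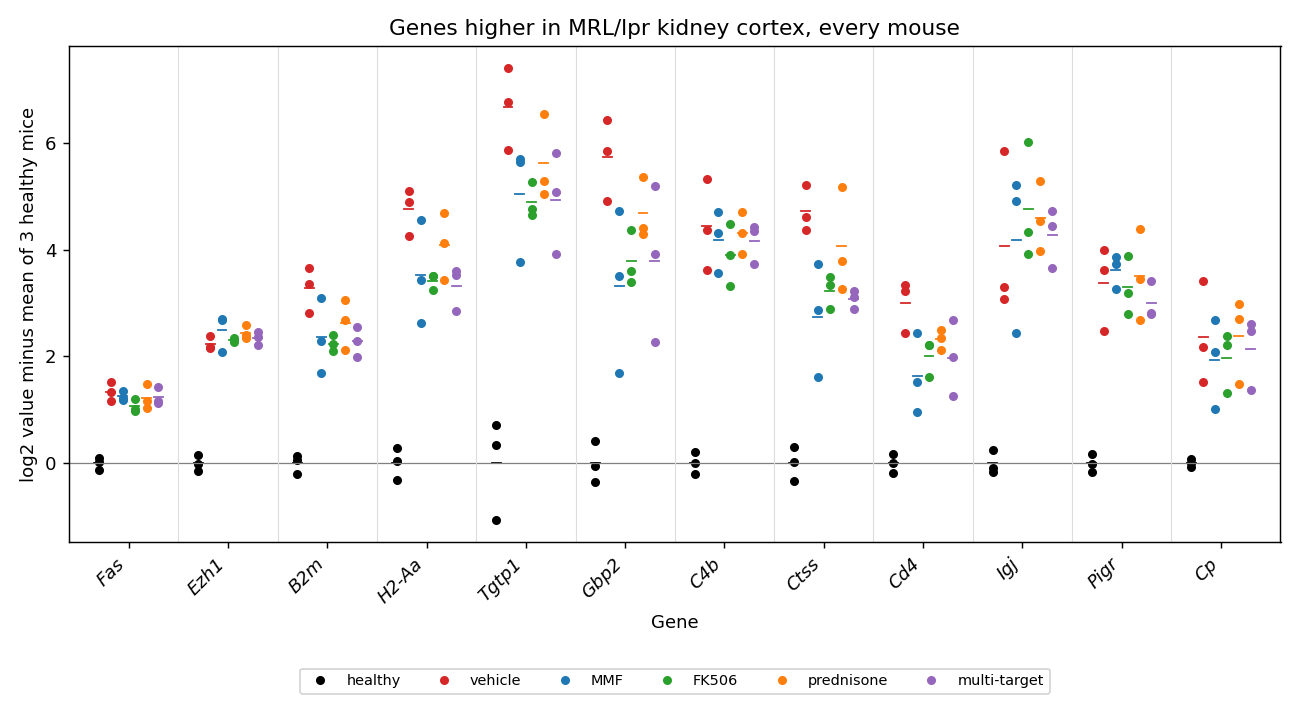
Log2 value minus the mean of the 3 healthy mice for 12 genes, with a point per mouse coloured by group and a short bar at each group mean. All 15 MRL/lpr mice lie above the healthy mice for each gene; Fas and Ezh1 sit in a narrow band across arms, whereas Tgtp1 and Gbp2 spread over several log2 units.

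The Fas gene itself was higher in every MRL/lpr mouse. Its log2 values were 6.63, 6.85 and 6.78 in the healthy mice and 7.73, 7.94 and 8.28 (lowest, median and highest) in MRL/lpr, without overlap. The difference was 1.23 ± 0.11 (SE; 15 and 3 mice; adjusted p = 7.42e-06), and the arm values were 1.34 for vehicle, 1.26 for MMF, 1.07 for FK506, 1.22 for prednisone and 1.24 for multi-target. A gene-level value does not show which exons the reads came from, so it is no check of the lpr genotype. Fas lies on chromosome 19 (GRCm38 chr19:34290666-34327772, plus strand, protein-coding).

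Of 20 genes of the Fas death receptor pathway 8 were higher and none lower, with a median difference of 0.40. Fasl, the ligand made by activated T and NK cells, was at 6.10, 6.05 and 6.25 in healthy mice and at 6.36, 6.77 and 7.66 in MRL/lpr. Its difference of 0.69 ± 0.18 (adjusted p = 0.0141) lost its call under quantile normalization and without healthy mouse 1 or 2. Tnfrsf1a, the TNF receptor, was higher by 0.85 ± 0.17 and Mlkl, the effector of necroptosis, by 1.19 ± 0.29. The adaptor Fadd and the initiator Casp8 were among the 12 members not called. Without healthy mouse 1, 2 or 3 the list had 4, 4 and 5 calls, and quantile normalization gave 5 higher and 1 lower.

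Antigen presentation genes were higher almost throughout. MHC class I molecules display peptides cut by the immunoproteasome and carried by the TAP transporter, and MHC class II molecules display peptides on professional antigen-presenting cells. All 19 measured genes of MHC class I presentation were higher, in all 15 mice each, with a median difference of 2.55. B2m had log2 values of 13.51, 13.78 and 13.86 in healthy mice and 15.41, 16.11 and 17.38 in MRL/lpr, 5.88-fold higher (2.55 ± 0.25, adjusted p = 1.14e-05). H2-D1, a classical class I heavy chain, was at 10.81, 10.88 and 10.94 against 13.24, 13.89 and 15.12 (difference 3.25 ± 0.25). Psmb8, an immunoproteasome subunit, was higher by 4.17 ± 0.35. Class I genes resemble each other closely, so reads may be divided among H2-D1, H2-Q6 (3.13) and H2-Q7 (2.76) in a way that the files do not show.

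Of 11 MHC class II genes 9 were higher, each in all 15 mice, with a median of 3.51. Cd74, the invariant chain, was at 12.17, 12.45 and 12.68 in healthy mice and 15.18, 16.43 and 17.74 in MRL/lpr (4.17 ± 0.34, adjusted p = 3.66e-06). H2-Aa, whose promoter is shown above, was at 10.36, 10.71 and 10.96 against 13.30, 14.21 and 15.78 (3.82 ± 0.32). The peptide-loading subunits H2-DMb1 (3.63 ± 0.22) and H2-DMb2 (4.18 ± 0.28) were among the 10 steadiest rises. H2-Oa and H2-Ob, the class II modulators typical of B cells, were not called (0.10 ± 0.35 and 1.01 ± 0.60). Counts of both MHC lists were the same without any 1 of the healthy mice and under quantile normalization. In bulk cortex, more cells of a type and more RNA per cell cannot be told apart, here and for every cell marker below.

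Interferon-inducible GTPases, which coat and disrupt pathogen vacuoles, and other gamma-interferon targets were higher in 16 of 18 members (median 2.51). Tgtp1 had log2 values of 4.30, 5.70 and 6.07 in healthy mice and 9.12, 10.65 and 12.75 in MRL/lpr, 43.2-fold higher (5.43 ± 0.48, adjusted p = 6.39e-06). Tgtp1 has a near-identical copy, Tgtp2, and the split of reads between them is uncertain. Iigp1 was at 6.90, 8.16 and 8.53 against 11.38, 13.29 and 15.82 (5.55 ± 0.54). Gbp2 was at 8.19, 8.50 and 8.96 against 10.24, 12.91 and 14.98 (4.26 ± 0.56), and Gbp6 was higher by 4.65 ± 0.65. No healthy mouse reached the lowest MRL/lpr mouse for any of these 4 genes. Ubd, a ubiquitin-like modifier induced by gamma-interferon and TNF, was higher by 4.96 ± 0.82 and Irf1, a transcription factor of the pathway, by 2.64 ± 0.30. Gbp8 (0.19 ± 0.40) and the T cell attractant Cxcl9 (2.38 ± 0.86, adjusted p = 0.0546) were not called.

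Type I interferon-stimulated genes were higher in 20 of 28, with a median of 1.42. Among them were Ifih1, a sensor of double-stranded RNA (1.40 ± 0.21), Bst2, which tethers budding virus (2.62 ± 0.42), the transcription factor Irf9 (1.44 ± 0.20) and the ADP-ribosyltransferase Parp14 (2.24 ± 0.31). Without healthy mouse 1, 2 or 3 the list had 8, 9 and 16 calls, and the GTPase list had 14, 14 and 16. Nucleic acid sensors and nucleases were higher in 14 of 22 and lower in 1. Tlr7, a receptor for single-stranded RNA on the X chromosome, was at 5.73, 6.21 and 5.86 in healthy mice and 7.26, 7.99 and 9.29 in MRL/lpr (2.16 ± 0.20, adjusted p = 9.13e-06). Tlr8, a close relative, was higher by 4.61 ± 0.36 from healthy values of 2.38, 1.27 and 3.18. These stand for few reads, so the size of the Tlr8 difference is uncertain. The DNA sensor Aim2 (1.20 ± 0.19) and Unc93b1, which carries endosomal Toll-like receptors (1.60 ± 0.28), were higher as well. The exception was Dnase1, a secreted nuclease that clears extracellular DNA, at 15.20, 14.81 and 14.70 in healthy mice and 9.31, 12.62 and 13.87 in MRL/lpr (-2.46 ± 0.62, adjusted p = 0.011). That call was lost without healthy mouse 1.

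Lymphocyte transcripts were higher. Of 24 T cell genes 18 were higher and none lower (median 1.11). Cd4, the coreceptor of helper T cells, was at 6.50, 6.70 and 6.86 in healthy mice and 7.65, 8.90 and 10.03 in MRL/lpr (2.19 ± 0.29, adjusted p = 0.000173). Pdcd1, the inhibitory receptor PD-1, was higher by 3.11 ± 0.47, the checkpoint receptor Lag3 by 1.87 ± 0.27 and the costimulator Cd28 by 1.66 ± 0.25. Cd8a and Cd8b1 were among the 6 members not called. Without healthy mouse 1, 2 or 3 there were 12, 14 and 13 calls. Of 6 natural killer and cytotoxic cell genes 4 were higher, among them the granzyme Gzmk (1.65 ± 0.26), whereas Gzmb (1.04 ± 0.41) and Prf1 (0.46 ± 0.23) were not called; leaving out healthy mouse 1 gave 1 call and leaving out mouse 2 or 3 gave 3 each.

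Plasma cell and B cell transcripts were higher. Of 9 plasma cell genes 7 were higher, each in all 15 mice (median 1.09), and of 9 B cell genes 5 (median 0.49). Igj, the joining chain of polymeric immunoglobulin (now Jchain), was at 8.08, 8.14 and 8.49 in healthy mice and 10.67, 12.68 and 14.26 in MRL/lpr, 20.8-fold higher (4.38 ± 0.60, adjusted p = 0.000232). Pou2af1, a B cell coactivator, was higher by 3.53 ± 0.45 and Mzb1, a chaperone of secretory B cells, by 2.68 ± 0.40. Prdm1 (0.20 ± 0.19) and Eaf2 (0.18 ± 0.17) were not called. In the B cell list Cd79b, part of the antigen receptor, was higher by 1.81 ± 0.29 and the inhibitory receptor Cd22 by 1.31 ± 0.16. Without healthy mouse 1, 2 and 3 plasma cell calls numbered 4, 5 and 4 and B cell calls 4, 3 and 4. Quantile normalization left 4 plasma cell and 3 B cell calls, with a B cell median of 0.26.

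Pigr, the epithelial receptor that carries polymeric immunoglobulin across tubule and mucosal cells, was at 11.85, 11.66 and 11.52 in healthy mice and 14.16, 15.09 and 16.07 in MRL/lpr (3.36 ± 0.33, adjusted p = 1.12e-05). The arms were close together, from 3.01 in multi-target to 3.62 in MMF. Ccl28, a chemokine that epithelia make to attract IgA plasma cells, was at 8.20, 7.92 and 7.25 against 9.38, 11.01 and 12.04 (2.92 ± 0.39).

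Macrophage and monocyte genes were higher in 20 of 25, with a median of 1.71. Ctss, a lysosomal protease, was at 8.10, 8.46 and 8.73 in healthy mice and 10.04, 11.76 and 13.65 in MRL/lpr (3.57 ± 0.37, adjusted p = 2.16e-05). C1qa and C1qc, subunits of the complement component that macrophages secrete, were higher by 3.26 ± 0.36 and 3.19 ± 0.41, and the lipid receptor Trem2 by 3.33 ± 0.44. Csf1r (0.26 ± 0.21), Mertk (-0.06 ± 0.17), Marco (0.18 ± 0.23), Cd14 (1.25 ± 0.48) and Ccr2 (0.55 ± 0.59) were the 5 members not called. Of 7 dendritic cell genes 2 were called higher (Irf8 0.93 ± 0.23 and Batf3 1.07 ± 0.35), and 6 of the 7 differences were above 0 (median 0.55). The members not called were Flt3 (0.11 ± 0.13), Xcr1 (-0.13 ± 0.34), Itgax, Clec9a and Zbtb46. Without healthy mouse 1, 2 or 3 the dendritic cell list had 0, 1 and 1 calls.

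Of 11 neutrophil genes 4 were higher and 1 lower. S100a8, a chain of the calprotectin dimer, was at 0.06, 2.59 and 2.77 in healthy mice and 5.19, 6.93 and 9.17 in MRL/lpr (5.20 ± 0.76, adjusted p = 0.000363). It rose from healthy values that stand for few reads, so the size of its difference is uncertain. Its partner S100a9 was higher by 2.95 ± 0.63 and the growth factor receptor Csf3r by 1.10 ± 0.16. The granule genes Mpo, Elane, Camp, Ngp and Ltf were not called. Outside the list, Slpi, a protease inhibitor of epithelia and neutrophils, was at 3.76, 3.59 and 3.88 against 6.95, 8.73 and 10.52 (5.01 ± 0.68), and Hp, the hemoglobin-binding haptoglobin, was higher by 4.52 ± 0.52.

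Complement genes were higher in 10 of 17 (1 lower) and genes of the Fc receptor list in 6 of 8. The 6 include Pigr, the epithelial carrier described above, and the Fc receptor-like gene Fcrl1. C4b, a component of the classical pathway encoded in the MHC, was at 9.38, 9.17 and 8.97 in healthy mice and 12.50, 13.49 and 14.50 in MRL/lpr, 18.4-fold higher (4.20 ± 0.31, adjusted p = 2.07e-06). Its arms ranged from 3.90 in FK506 to 4.44 in vehicle. C3ar1, the receptor of a complement fragment, was higher by 2.83 ± 0.33 and Serping1, the inhibitor of C1, by 1.71 ± 0.24. The activating receptors Fcgr3 (2.51 ± 0.31) and Fcgr4 (3.25 ± 0.48) and their shared chain Fcer1g (2.71 ± 0.40) were higher. The inhibitory receptor Fcgr2b was at 10.07, 9.98 and 10.13 in healthy mice and 8.96, 10.27 and 10.94 in MRL/lpr, with a difference of -0.01 ± 0.31, and the neonatal receptor Fcgrt was at -0.36 ± 0.23, neither of them called. Complement had 6, 8 and 7 higher calls without healthy mouse 1, 2 and 3.

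Genes of leukocyte recruitment and cytokine signalling were higher too. Of 23 chemokines and receptors 9 were higher, of 21 cytokines and receptors 15, of 16 adhesion genes 11 and of 22 genes of STAT, SOCS and NF-kappaB signalling 12, with none lower and medians of 1.10, 1.32, 1.18 and 0.41. Cxcl13, the B cell attractant of lymphoid follicles, was at 4.70, 4.08 and 4.58 in healthy mice and 6.58, 8.19 and 9.83 in MRL/lpr (3.82 ± 0.50, adjusted p = 0.000165). It was also the only one of 5 measured lymphoid stroma genes called, with Madcam1 (0.38 ± 0.62), Pdpn (0.81 ± 0.31), Lyve1 (1.54 ± 0.60) and Prox1 (-0.10 ± 0.33) not called. Tnfsf13b, the B cell survival factor BAFF, was at 5.91, 5.83 and 5.47 against 6.72, 7.56 and 8.93 (1.91 ± 0.28), and Il1b, an inflammasome product, was higher by 2.58 ± 0.30. Socs3, a feedback inhibitor of cytokine receptors, was higher by 2.69 ± 0.38 and Stat3, the factor that induces it, by 1.26 ± 0.18. Among adhesion genes, the selectin ligand Selplg (2.17 ± 0.34) and the integrin chains Itga4 (0.94 ± 0.11) and Itgb2 (2.29 ± 0.34) were higher. Endothelial Vcam1 ranged from 9.39 to 15.01 among MRL/lpr mice and was not called (1.69 ± 0.61, adjusted p = 0.0537). The signalling list had 7, 8 and 8 calls without healthy mouse 1, 2 and 3, against 6, 7 and 8 for chemokines, 12, 10 and 12 for cytokines and 9, 9 and 10 for adhesion.

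Injury genes of the tubule were higher in part, and matrix genes close to the all-gene share. Of 24 injury genes 8 were higher and 10 had all 15 mice above healthy (median 0.88). Cp, the copper oxidase ceruloplasmin, was at 11.19, 11.12 and 11.05 in healthy mice and 12.14, 13.33 and 14.53 in MRL/lpr (2.16 ± 0.41, adjusted p = 0.002). S100a6 was higher by 2.07 ± 0.42, the cell cycle inhibitor Cdkn1a by 2.0 ± 0.50 and the secreted serpin Serpina10 by 1.48 ± 0.31. Of 25 matrix genes 5 were higher (median 0.42). Dcn, a small collagen-binding proteoglycan, was at 9.57, 9.33 and 9.46 against 10.31, 11.71 and 13.42 (2.28 ± 0.52), and Mmp14, a membrane metalloproteinase, was higher by 1.47 ± 0.34, whereas the fibrillar collagens Col1a1, Col1a2 and Col3a1 were not called. The matrix medians differed between arms, at 1.45 in vehicle, 0.73 in prednisone, 0.26 in multi-target, 0.05 in MMF and -0.07 in FK506. Calls in the injury and matrix lists numbered 3 and 2 without healthy mouse 1, 4 and 2 without mouse 2, and 5 and 2 without mouse 3. The matrix list had 3 under quantile normalization and 2 without the libraries with fat or adrenal transcripts. Podocyte genes were higher in 8 and lower in 1 of 21 (median 0.29), against 18.3% higher and 7.91% lower over all genes. Without healthy mouse 1, 2 or 3 podocyte calls numbered 2, 2 and 4, all higher, and quantile normalization gave 5 higher and 2 lower.

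**Figure D2:**
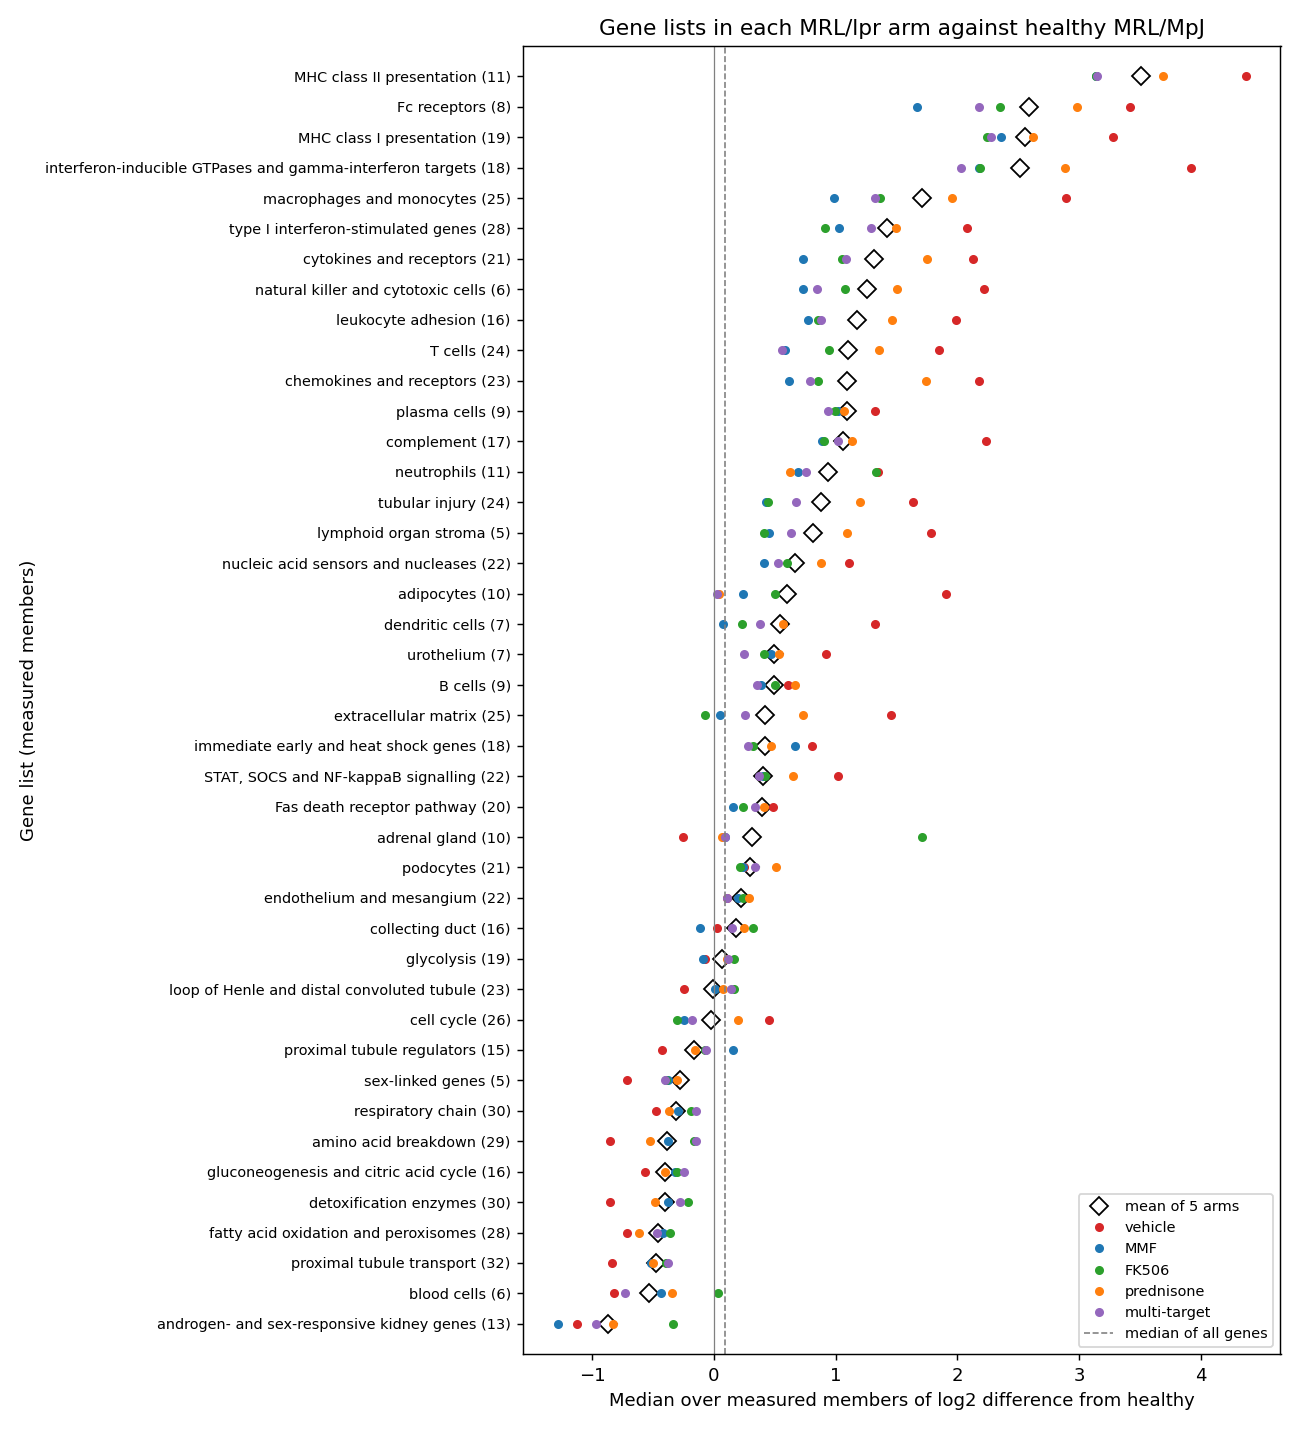
Median over measured members of the log2 difference from healthy for 42 gene lists, with a coloured point per MRL/lpr arm, a diamond for the mean of the 5 arms and a dashed line at the median of all genes (0.09). MHC class II presentation lies highest, at 3.14 to 4.37 in the 5 arms, and the vehicle arm lies farthest from healthy in most immune lists; all arms share the same 3 healthy mice.

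Transport and metabolic genes of the proximal tubule were lower in part. Of 32 proximal tubule transport genes 9 were lower and none higher, with all 15 mice below healthy for 12 and a median of -0.48. Slc22a6, the basolateral organic anion transporter OAT1, was at 14.87, 14.88 and 14.71 in healthy mice and 12.39, 13.29 and 14.54 in MRL/lpr (-1.33 ± 0.36, adjusted p = 0.0145). Slco1a6, an organic anion transporter, was at -1.25 ± 0.32, the glucose transporter Slc2a2 at -0.56 ± 0.14 and the bicarbonate cotransporter Slc4a4 at -0.60 ± 0.16. Slc34a1, the main phosphate cotransporter, was below healthy in all 15 mice (17.98, 17.92 and 17.93 against 15.88, 17.22 and 17.74) and missed the threshold (-0.81 ± 0.29, adjusted p = 0.0502). The list had 0, 2 and 2 calls without healthy mouse 1, 2 and 3.

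Fatty acid oxidation and peroxisomal genes were lower in 13 of 28 (median -0.46). Acaa1b, a peroxisomal thiolase, was at 14.40, 14.58 and 14.66 in healthy mice and 12.17, 12.94 and 13.66 in MRL/lpr (-1.61 ± 0.27, adjusted p = 0.000869). Its close relative Acaa1a was at -0.97 ± 0.14, the peroxisomal bifunctional enzyme Ehhadh at -0.98 ± 0.19 and Cyp4b1 at -1.08 ± 0.23. Respiratory chain genes were lower in 9 of 30 (median -0.31), gluconeogenesis and citric acid cycle genes in 5 of 16 (-0.40) and amino acid breakdown genes in 8 of 29 (-0.39), with none higher in any of them. The respiratory subunit Ndufs1 was at -0.75 ± 0.20, the gluconeogenic enzyme Fbp1 at -0.81 ± 0.24 and the proline pathway enzyme Aldh4a1 at -0.84 ± 0.20. Hdc, which makes histamine, was at 11.94, 12.16 and 12.71 against 8.90, 9.97 and 11.35 (-2.09 ± 0.43). Without healthy mouse 1, 2 or 3 the oxidation list had 7, 5 and 6 calls and the amino acid list 5 in each case, whereas the respiratory and citric acid cycle lists had 0 in each. Lower calls over all 15035 genes also fell in these settings, from 1189 to 424, 457 and 422, so few were to be found in lists of this length. Under quantile normalization these 4 lists kept medians below 0 and had 11, 8, 4 and 2 calls for oxidation, amino acids, respiration and citric acid cycle. As 12.5% of all genes were called lower there, the respiratory and citric acid cycle counts stood at about the all-gene share.

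Detoxification enzymes were lower in 8 of 30 and higher in 2, with carboxylesterases among the largest falls of all genes. Ces1f was at 12.11, 11.98 and 12.13 in healthy mice and 7.19, 9.12 and 10.87 in MRL/lpr, 0.124 times the healthy level (-3.01 ± 0.73, adjusted p = 0.00861). Ces1d was at 15.79, 15.94 and 15.96 against 12.16, 13.56 and 14.35 (-2.48 ± 0.30), and Ces1g (-2.40 ± 0.45) and Ces1e (-1.68 ± 0.27) were lower too. These esterases lie side by side on chromosome 8 and resemble each other, so their reads may be shared. Dio1, the deiodinase that activates thyroid hormone, was at 12.30, 12.36 and 12.33 against 7.87, 9.78 and 11.45 (-2.65 ± 0.55). Without any 1 of the healthy mice the detoxification list had 5 lower calls and 1 higher.

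Hormone-dependent kidney genes included Kap and Prlr, both with large falls. Of 13 androgen- and sex-responsive genes 6 were lower and 1, the hydroxylase Cyp7b1, was higher (0.98 ± 0.20). Prlr, the prolactin receptor, was at 13.12, 12.99 and 12.92 in healthy mice and 7.78, 9.42 and 11.68 in MRL/lpr, 0.0872 times the healthy level (-3.52 ± 0.59, adjusted p = 0.000946). Kap, an androgen-regulated protein of the proximal tubule, was at 17.81, 17.75 and 17.87 against 7.79, 13.31 and 17.42 (-4.53 ± 1.46, adjusted p = 0.0332). MRL/lpr mice thus covered almost 10 log2 units of Kap, and the call was lost without any 1 of the healthy mice, without the prednisone arm and with the arm as a random block. The steroid reductase Akr1c18 (-2.73 ± 0.66) lost its call without healthy mouse 1, and Slc22a30, an organic anion transporter, was at -1.90 ± 0.41. The list had 2, 3 and 3 lower calls without healthy mouse 1, 2 and 3. Sex is not in the labels; Xist did not pass the test (-0.28 ± 0.24), and the Y-linked Eif2s3y, at 8.49 to 8.65 in healthy and 6.57 to 7.73 in MRL/lpr mice, was lower (-1.20 ± 0.17), although such reads may come from its X-linked copy.

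Renin, which starts the angiotensin cascade from the juxtaglomerular cells, was lower. Ren1 was at 11.68, 11.68 and 12.37 in healthy mice and 7.20, 10.16 and 11.27 in MRL/lpr (-2.15 ± 0.68, adjusted p = 0.0314). Ren2, a near-identical copy, had almost the same values (-2.13 ± 0.68), so the assignment of reads between them is uncertain. Both calls were lost without any 1 of the healthy mice and without the prednisone arm. Kl, the FGF23 coreceptor klotho, was at 15.37, 15.35 and 15.09 against 13.07, 13.99 and 15 (-1.22 ± 0.30) and lost its call without healthy mouse 1 or 2.

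**Figure D3:**
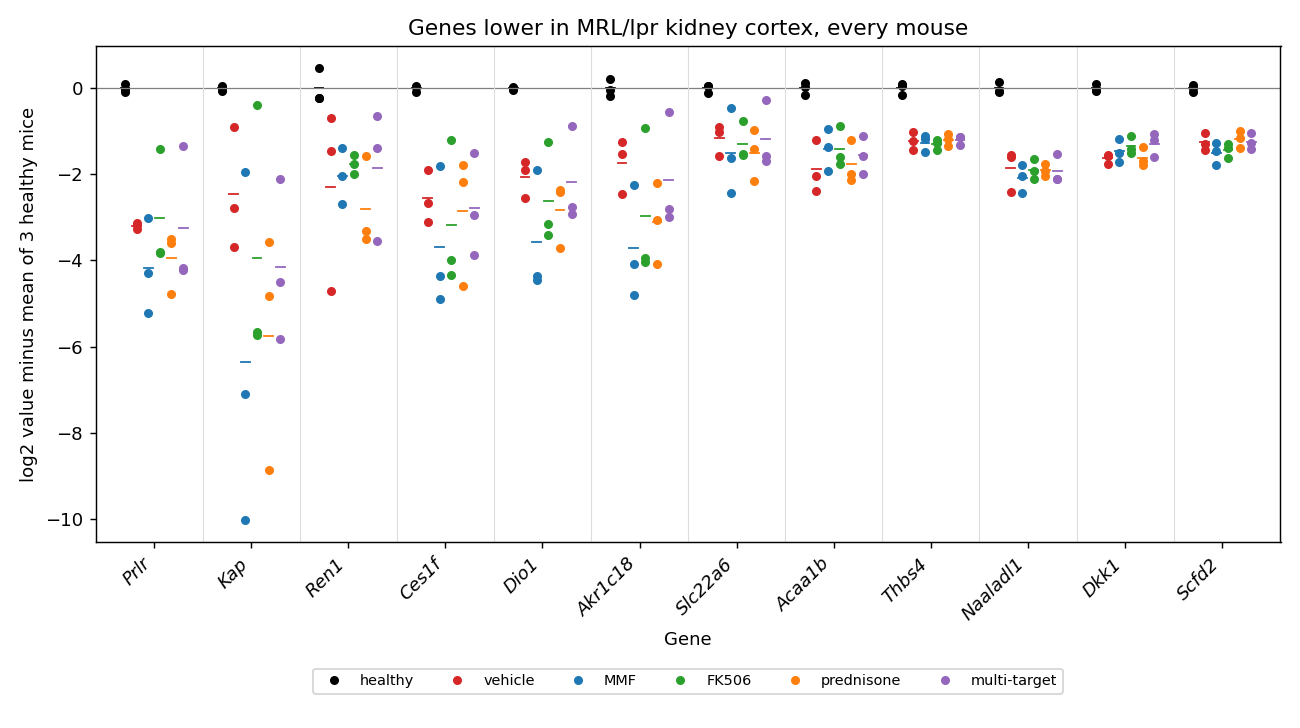
Log2 value minus the mean of the 3 healthy mice for 12 genes lower in MRL/lpr, with a point per mouse coloured by group and a short bar at each group mean. Kap ranges from near the healthy level to about 10 log2 units below it within the MRL/lpr mice, whereas Thbs4, Naaladl1, Dkk1 and Scfd2 lie in narrow bands below healthy in every arm.

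The remaining groups had few calls or calls in both directions. Cell cycle genes were called in 1 of 26 (Pcna, 0.27 ± 0.09, a call lost without any 1 of the healthy mice) with a median of -0.03, collecting duct genes in 1 of 16, and loop of Henle and distal tubule genes in 2 higher and 2 lower of 23, with 0, 0 and 1 calls without healthy mouse 1, 2 and 3. Endothelial and mesangial genes were higher in 3 and lower in 1 of 22, with 1, 0 and 1 calls without healthy mouse 1, 2 and 3. Glycolysis was divided, with 5 of 19 higher, such as the lactate transporter Slc16a3 (1.83 ± 0.24), and 3 lower, such as the phosphoglycerate kinase Pgk1 (-0.63 ± 0.16). Glycolysis had 1 higher call without healthy mouse 1, 2 or 3 and 2, 1 and 1 lower calls. Of 6 blood cell genes the beta globins Hbb-bs (-0.51 ± 0.15) and Hbb-b1 (-0.55 ± 0.17), which share sequence, were lower, a call lost without any 1 of the healthy mice. The alpha globins Hba-a1 (-0.70 ± 0.62) and Hba-a2 (-0.70 ± 0.60), Slc4a1 (-0.01 ± 0.27) and Alas2 (0.33 ± 0.17) were not called. Immediate early and heat shock genes were higher in 2 of 18 (Jund 0.61 ± 0.16 and Atf3 1.87 ± 0.60), both lost without healthy mouse 1 and without healthy mouse 2, and Atf3 also without healthy mouse 3. Regulators of the proximal tubule were higher in 1 and lower in 2 of 15 (Hnf4g, a nuclear receptor, at -0.56 ± 0.12). Among tissues next to the kidney, adipocyte genes were called in 1 of 10 (Plin4, a lipid droplet protein, 2.45 ± 0.77, lost without any 1 of the healthy mice), and their list mean was 5.67 above healthy in vehicle mouse 17 against an MRL/lpr median of 0.07. The list mean of adrenal genes was 4.02 in FK506 mouse 12 against a median of 0.04, and that of urothelial genes was 3.41 in vehicle mouse 17 against 0.44.

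What separated the strains whatever the treatment was read from the ratio of the pooled difference to the SD over the 15 MRL/lpr mice. Ezh1, a histone H3 lysine methyltransferase of the Polycomb group, had the highest ratio (12.8). It was at 9.63, 9.75 and 9.93 in healthy mice and 11.85, 12.11 and 12.48 in MRL/lpr, 5.16-fold higher (2.37 ± 0.11, adjusted p = 2.69e-08). The arms lay between 2.24 and 2.50, and no library came near the other strain.

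Ska3, a kinetochore protein, followed with 7.84, 7.92 and 7.64 against 8.83, 9.21 and 9.44 (1.38 ± 0.11). C4b, Fas, H2-DMb1, H2-DMb2 and Fpr2 were also among the 10 steadiest rises. The others were the olfactory receptor genes Olfr729 (1.5 ± 0.12) and Olfr1356 (1.96 ± 0.24) and Zmat2, a splicing factor (0.42 ± 0.06). On the lower side Thbs4, a thrombospondin of the matrix, had the steadiest value (ratio -8.58), at 8.82, 8.77 and 8.56 against 7.23, 7.51 and 7.71 (-1.24 ± 0.11, adjusted p = 7.21e-06). Naaladl1, a peptidase, was at 8.01, 8.21 and 7.98 against 5.64, 6.14 and 6.55 (-1.93 ± 0.19), and Dkk1, a secreted Wnt inhibitor, at 8.42, 8.43 and 8.57 against 6.68, 6.97 and 7.41 (-1.46 ± 0.14). The remaining 7 were Scfd2 (-1.32), Dlg2 (-1.20), Plxnb3 (-0.88), Nlrp12 (-0.87), Mybpc3 (-0.83), Wdr36 (-0.50) and Col6a5 (-0.47). None of these 20 genes lost its call in any of the alternatives that tested it. They were picked as called, separated and steady in these same libraries. Their kept calls were therefore largely fixed by the choice and give no separate support.

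**Figure D4:**
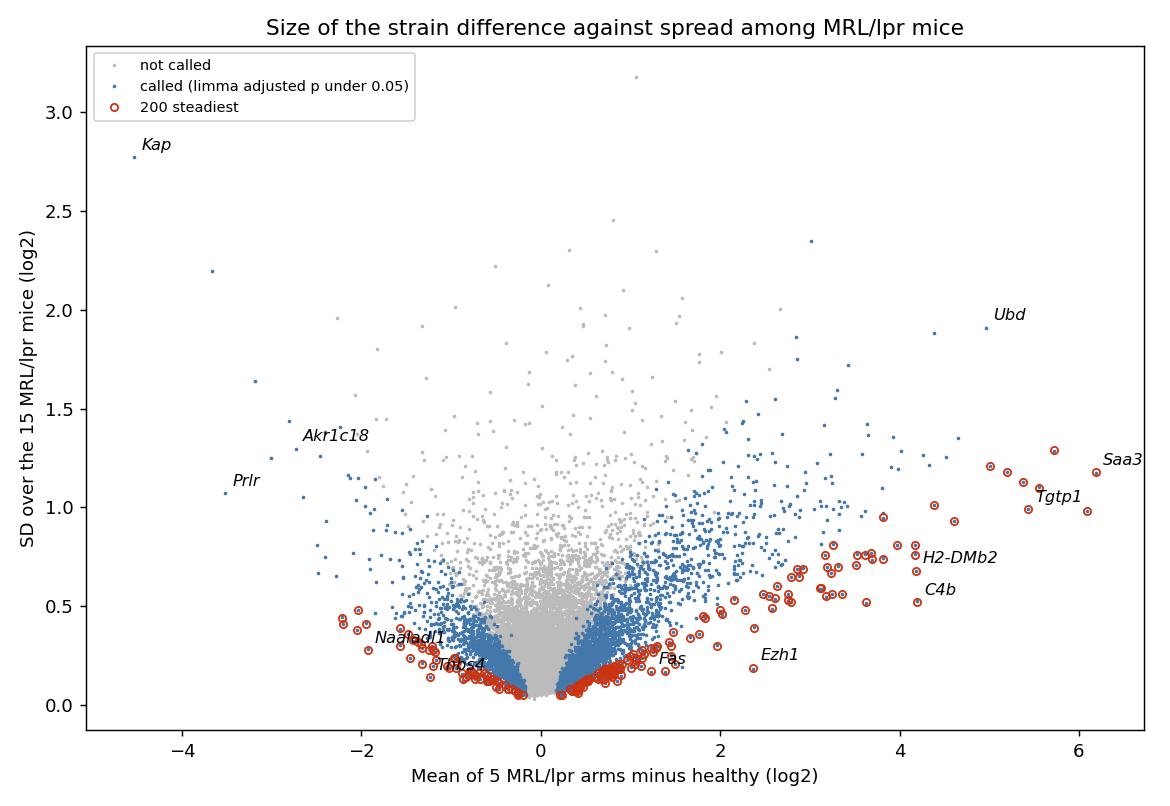
Mean of the 5 MRL/lpr arms minus healthy (log2, horizontal) against the SD over the 15 MRL/lpr mice (log2, vertical) for all 15035 genes, with called genes in blue and the 200 steadiest called genes ringed. Ezh1 combines a difference of 2.37 with a small SD, whereas Ubd and Kap lie at large differences with large SDs.

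Positions were described for the 200 steadiest called genes, 141 higher and 59 lower, with ratios of 3.98 or more in size (member 200, Atcay, at 3.98 and the next gene, 1700003M02Rik, at 3.97). In windows of 5 Mb, 132 of 533 held at least 1 of the 196 that could be placed and 7 held at least 3. Over all tested genes the share was 200 of 15035, against which the counts below are to be read. The MHC on chromosome 17 held most: 12 of 122 tested genes between 30 and 35 Mb and 13 of 71 between 35 and 40 Mb. Among the 13 were H2-D1, H2-Q6, H2-Q7 and other class I genes. Their reads may be shared, so they are not independent members of the count. A window of chromosome 10 from 75 to 80 Mb followed with 5 of 92, among them Olfr1356, the ion channel gene Trpm2 and the SUMO gene Sumo3. Within 5 Mb of Fas 4 of 67 tested genes were among the 200, and 13 were called higher and 12 lower (37.3%, against 30.6% for chromosome 19 and 26.2% for all genes). The number of genes, the window size and Trpm2 and Sumo3 were chosen after the values were seen, and no test was made.

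The 5 MRL/lpr arms were compared with each other in the same fit. The called genes had a median absolute difference from healthy of 0.58 and a median range of arm means of 0.36. A test of any difference among the arms (limma F) called 0 genes of 15035 (0%), with 2078 at an unadjusted p under 0.05 (13.8%) and a smallest adjusted p of 0.159. Drug-treated against vehicle MRL/lpr mice also gave 0 calls (0%), with 3663 at an unadjusted p under 0.05 (24.4%) and a smallest adjusted p of 0.0872. Single mice decided these zeros: without MMF mouse 1 there were 2097 and 1828 calls, and the drug comparison had 1441 without vehicle mouse 7 and 895 without prednisone mouse 23. Limma's array weights, whose estimation stopped before convergence, gave 8799 and 2905. The absence of calls does not show that the arms were alike.

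The arm values side by side show how far the common difference varied. Ubd differed from healthy by 7.16 in vehicle, 3.98 in MMF, 3.78 in FK506, 5.92 in prednisone and 3.97 in multi-target. The chemokine Ccl5 differed by 4.94, 1.57, 2.27, 3.56 and 1.95 in the same order, and the chemokine Ccl8 by 5.07, 2.11, 3.00, 3.29 and 3.03. Vehicle lay highest for all 3, and the same held for Tnf (3.51, with MMF lowest at 0.76) and Basp1, a membrane-associated protein (3.19, with MMF lowest at 0.44). Apcs, the pentraxin serum amyloid P, had 1 read in each healthy mouse, the lowest value of those libraries, and 1 to 142 in MRL/lpr. The ratio was 19.7 (95% exact counting interval 6.67 to 96.0), and its size is uncertain. Among lower genes, Kap differed by -2.46, -6.35, -3.94, -5.75 and -4.15, Akr1c18 by -1.74, -3.71, -2.97, -3.11 and -2.12, and the muscarinic receptor Chrm2 by -1.93, -4.57, -3.36, -4.78 and -3.66. Vehicle lay nearest to healthy for these 3 and for the acetyltransferase Cml2 (-1.26, with MMF at -3.38), and farthest from it for Dnase1 (-3.73, with FK506 nearest at -1.71). The bile acid transporter Slc10a2 was at -2.47 in MMF and -0.44 in FK506. The calls of Kap, Chrm2, Cml2, Slc10a2, Apcs, Tnf, Basp1 and Ccl5 were lost without healthy mouse 1, as were those of Akr1c18 and Dnase1.

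Vehicle mouse 36 and MMF mouse 27 marked the ends of the MRL/lpr range in many lists. Vehicle mouse 36 had the highest list mean for T cells (2.24 above healthy), macrophages (3.36) and tubular injury (3.04) and the lowest for proximal tubule transport (-1.46), amino acid breakdown (-1.84) and fatty acid oxidation (-1.20). MMF mouse 27 had the lowest list mean for MHC class I (1.52) and class II (1.67), GTPases (1.39), macrophages (0.53) and tubular injury (-0.10). Even so, its MHC list means lay above the highest healthy means of 0.13 and 0.12. Without vehicle mouse 36 the pooled comparison called 4197 genes and without MMF mouse 27 it called 3738. Leaving out the 2 libraries with fat or adrenal transcripts gave 3412.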

How the data were processed

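RNA from frozen kidney cortex of 18 mice was made into libraries with a kit that does not mark strand, per the labels' protocols, so genes overlapping on opposite strands cannot be told apart. The authors deposited log2 expression values per gene symbol; per the submitters' processing notes limma and the mm10 build were used, and the sources used here give no aligner, annotation or normalization. In 75.0% to 75.4% of genes per library, 2 to the power of the deposited log2 value was a whole number of reads (within 0.001) times 1 factor per library. The lowest value stood for 1 read in 15 of the 18 libraries, and a gene with no read in a library would not show. Of 15035 symbols 14319 were matched to GENCODE genes by name and 573 through a RefSeq synonym. The 23 rows with dates in place of symbols were tested and not named.

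The log2 values were fitted without a filter in limma 3.58.1 (R 4.3.3) as 6 group means over 18 libraries (12 residual degrees of freedom, mean-dependent prior variance). Contrasts were the mean of the 5 MRL/lpr arm means minus healthy, any difference among the arms (F test), and the mean of the 4 drug arms minus vehicle. Each was adjusted over 15035 genes at 0.05. The fit was checked on simulated data. P-values measure the spread between mice, and the labels do not say whether mice were littermates.

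Named genes were called, had no overlap between strains and carried a regular symbol. They were the 15 largest rises and falls, the 10 steadiest in each direction, up to 4 called members of each list by smallest p with the uncalled members where a list has 5 or fewer, the 6 with the widest range of arm means in each direction, and check genes; list members and widest-arm genes may overlap. Some genes that the rule or the lists hold are not reported here. Genes given only as members of a list by name, and B2m, were chosen after their values were seen. The comparison, the 42 lists (746 of 799 entries measured) and the tests were chosen with earlier results of these data known. The alternatives were other fits, scalings and filters and the omission of each mouse, arm or the libraries with other tissues.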

Additional observations from a re-analysis of the deposited data

How the results depend on the processing

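No called gene named here changed direction in the alternatives run. Of the 220 named genes 179 were called. Of these 179, 120 kept the call in every alternative that tested them, of 31 run, and 59 lost it in at least 1. The filters did not test every named gene: the restriction to whole reads tested 170 of the 220, and leaving out the lowest 25% of genes also removed some. Most named genes were chosen for size, steadiness or small p in these same data, so these counts do not stand for all called genes. The limits lie in the 3 healthy mice and in 1 spread assumed for strains of unequal spread. List medians near 0 were not stable in sign, and under quantile normalization those of adipocyte and adrenal genes went from 0.60 and 0.31 to -0.26 and -0.18. Quantile normalization gave 1537 higher and 1879 lower genes, with 1168 above and 1581 below healthy in every mouse. Array weights gave 9748 calls (6352 higher, 3396 lower), 8799 among arms and 2905 for drug against vehicle. Other fits called 3705 genes (the strains as 2 groups), 2690 (the arm as a random block), 2798 (lowest 25% of genes left out), 3872 (1 prior variance) and 2895 (genes in whole reads, chosen after seeing the data). Leaving out 1 mouse at a time gave 1680 to 5377 calls, 1256 to 3635 higher and 422 to 1742 lower, with the low ends all from leaving out a healthy mouse. It gave 1995 to 2396 genes above and 1003 to 1199 below healthy in every mouse, 0 to 2097 calls among arms and 0 to 1828 for drug against vehicle. The cause was not tested. No paired analysis was possible because the numbers in the titles name mice and no arm shares more than 1 number with the healthy group.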
